A study of Homo sapiens with 24 samples.

Results

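Krüppel-like factors (KLFs) are transcription factors that bind CACCC and GC-rich boxes through zinc fingers at their C-terminal end. The family divides by the partners of the other end of the protein. KLF2, KLF4, KLF5, KLF6 and KLF7 mostly activate transcription with acetyltransferases, KLF3 represses through the corepressor CtBP, and KLF9, KLF10, KLF11 and KLF13 recruit the corepressor SIN3A. Several of them meet the C/EBP family in the differentiation of adipocytes, in which KLF5 lies downstream of C/EBPβ and C/EBPδ, KLF4 acts on the gene of C/EBPβ, and KLF2 and KLF3 hold differentiation back. In models of pancreatic cancer, KLF4 takes part in the change of acinar into ductal cells and KLF5 in keeping the epithelial identity of tumor cells.

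These 10 genes were taken from the count table by matching their symbols to its Ensembl identifiers, 10 of 60675 rows. The libraries came from MIA PaCa-2, an established line of human pancreatic carcinoma cells, which carried a lentiviral Tet-On construct. In C/EBPδ-inducible cells, a pool of 3 clones marked with mVenus, doxycycline switches on a CEBPD cDNA. CTRL cells carried the construct without the cDNA and were marked with mCherry. Both lines were cultured with 2 µg/mL doxycycline for 8, 24 or 48 h or harvested at 0 h, with 3 wells seeded in parallel in each of the 8 groups, giving 24 libraries. The labels list the same dose at 0 h, whereas the study's methods treat 0 h as untreated, and it was used as such. Wells of 1 line are not separate derivations of it, so that the p values measure the spread between wells. The 2 lines differ in construct, reporter and clonal origin at every time, and doxycycline and time in culture cannot be told apart within a line. In bulk RNA, fewer cells with a transcript and less transcript per cell cannot be told apart either.

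The libraries held 12731237 to 22598595 counts (median 18959364). CEBPD checked the labels: CTRL cells had 1.32 to 4.42 counts per 1000000 of the TMM-scaled library total (CPM), cDNA and endogenous gene together, at all times, and C/EBPδ-inducible cells had 18.9 to 23.4 CPM at 0 h and 200 to 321 CPM at 8 to 48 h. The lines thus differed in CEBPD before doxycycline, by 2.44 on the log2 scale (SE 0.11, adjusted p = 2.85e-13). Of the markers of the line, KRT8, KRT18, KRT19, SOX9 and VIM were present in every library. The keratins varied widely, with group means of 36.4 to 1560 CPM for KRT8, 70.7 to 1154 for KRT18 and 7.54 to 207 for KRT19. Group means were 64.2 to 198 CPM for SOX9 and 5387 to 6934 CPM for VIM. The epithelial markers EPCAM, CDH1 and KRT7 had 0 or 1 count in the lowest and 43 to 97 counts in the highest library. The part of these epithelial differences in the results was not tested. Acinar and islet markers (PRSS1, CPA1, CTRB1, CELA3A, INS, GCG and SST) had at most 2 counts in any library. Of the markers of other cells, CD3E had no count, PTPRC, HBB and DCN had at most 1, PECAM1 and LUM at most 6 and 9, and CDH5, COL1A1 and PDGFRB up to 44, 43 and 31. COL1A2, a collagen gene of fibroblasts, had 143 to 649 CPM as group means, and its part in the results was not tested. Replicates were compared by a chi-square per gene, which ranged from 1.66 to 16.7. The largest values belonged to replicates 1 and 3 of CTRL cells at 8 h (16.7) and to replicate 3 of C/EBPδ-inducible cells at 8 h against the other 2 (12.3 and 12.5). The latter was also the smallest library. Results that change without these libraries are named as such.

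All comparisons used the quasi-likelihood test of edgeR with an FDR of 0.01, over every gene that passed its filter on low counts. Per kilobase of exon, which allows genes to be compared, KLF6 was the most abundant member with a mean of 36.9 CPM per kb over the 24 libraries. KLF2 (15.4), KLF4 (11.5), KLF3 (11.2) and KLF10 (8.25) followed, and KLF13 (2.63), KLF9 (2.08), KLF11 (1.67) and KLF5 (0.832) were lower. KLF7, a factor of neuronal development, had 0 to 7 counts per library in both lines, did not pass the filter and was tested nowhere. A library with 3 counts lay at 0.13 to 0.236 CPM, so that a difference in KLF7 was not detectable at this depth. The other 9 members were tested in each comparison.

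**Figure D1:**
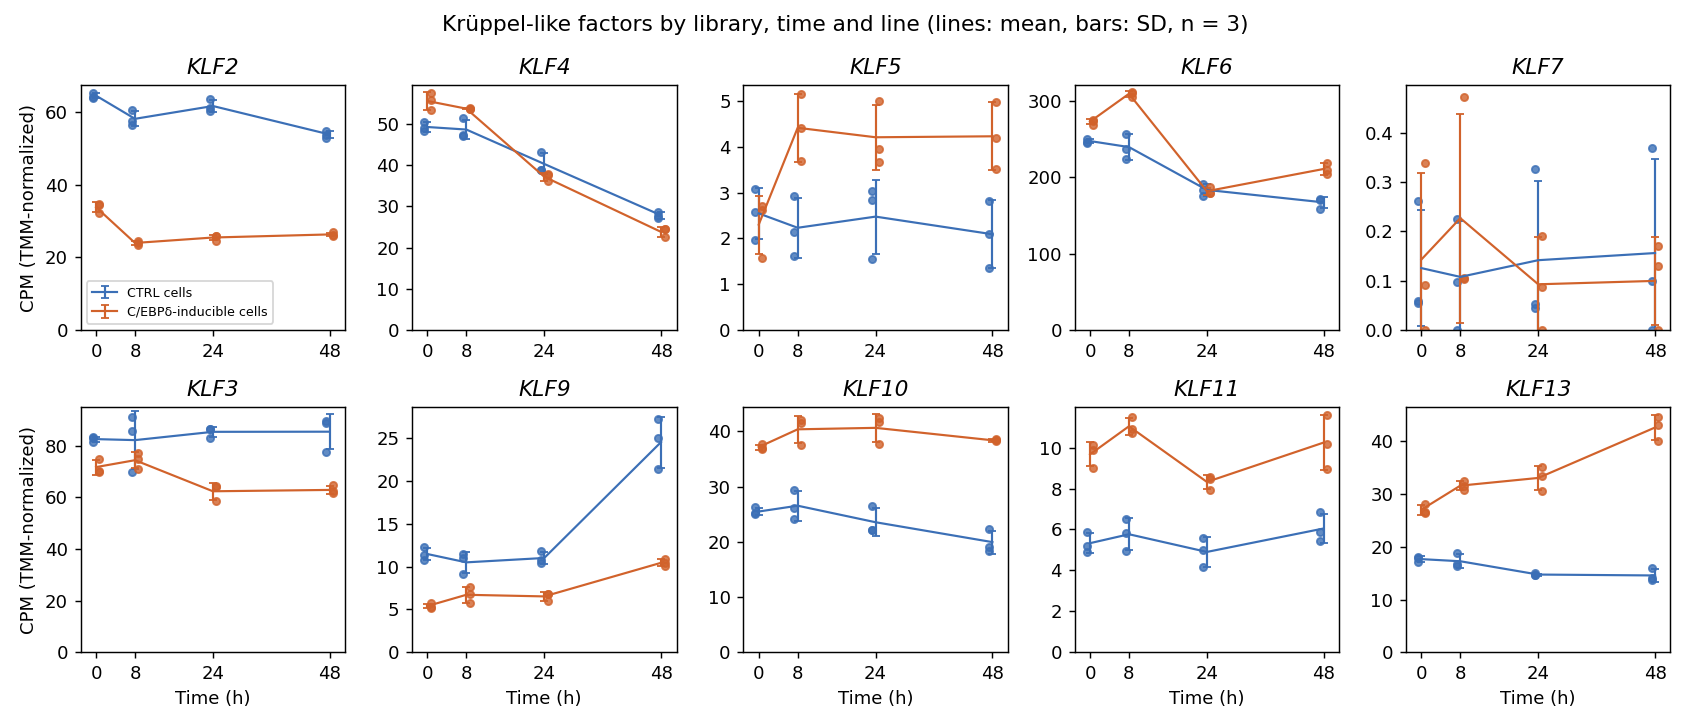
Level of each Krüppel-like factor (CPM, TMM-normalized, linear axes that start at 0) against time in hours, with a point for each library, and lines and bars for the mean and SD of 3 libraries, for CTRL cells (blue) and C/EBPδ-inducible cells (orange). KLF13 rose from 27.0 to 42.6 CPM in inducible cells and lay near 14.6 CPM at 48 h in CTRL cells, and KLF9 rose at 48 h in both lines.

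KLF13, KLF2 and KLF4 were the members whose change after doxycycline differed between the lines in at least 1 comparison under every alternative processing that was tried. Their promoters are shown for that reason. The 250 bases before the RefSeq start (GRCh38.p14) lie at chr15:31326585-31326834 on the plus strand for KLF13, at chr19:16324576-16324825 on the plus strand for KLF2 and at chr9:107489770-107490019 on the minus strand for KLF4. None of the 3 windows overlaps an exon of GENCODE 44, which holds 1 further start of KLF4 upstream. Capitals mark matches on either strand to CCAAT (the CCAAT box), CACCC (the KLF box), TGACG (part of the cyclic AMP element) or CACGTG (the E-box).

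KLF13: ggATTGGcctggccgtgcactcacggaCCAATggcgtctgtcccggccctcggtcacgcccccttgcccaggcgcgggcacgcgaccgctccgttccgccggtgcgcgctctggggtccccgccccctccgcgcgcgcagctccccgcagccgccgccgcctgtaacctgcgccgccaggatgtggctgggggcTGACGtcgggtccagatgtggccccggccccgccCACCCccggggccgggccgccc
KLF2: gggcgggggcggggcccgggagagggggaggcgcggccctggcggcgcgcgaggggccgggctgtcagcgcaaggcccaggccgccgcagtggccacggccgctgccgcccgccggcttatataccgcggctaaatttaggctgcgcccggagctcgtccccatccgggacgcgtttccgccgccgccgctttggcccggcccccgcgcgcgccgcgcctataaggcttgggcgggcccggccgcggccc
KLF4: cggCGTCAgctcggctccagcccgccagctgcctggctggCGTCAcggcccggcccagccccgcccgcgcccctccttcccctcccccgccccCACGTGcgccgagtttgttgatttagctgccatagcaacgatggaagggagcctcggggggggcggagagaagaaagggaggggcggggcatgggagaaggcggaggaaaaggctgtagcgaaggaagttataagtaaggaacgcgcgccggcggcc

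The KLF13 window held 2 CCAAT boxes, 1 KLF box and 1 TGACG. The KLF4 window held 2 TGACG matches and 1 E-box, and the KLF2 window, with 80% G and C, held none of the letters searched. The C/EBP pattern TTGCNNAA, searched with any base at each N and so not only as a palindrome, was absent from all 3 windows. Among the 8 members with a RefSeq promoter, together with 13 starts, it was found before 1 start of KLF7, compared with 9.05% of all 35116 promoters, each searched over the 250 bases before its start. At least 1 start held CCAAT in 5 of these members (32% of all promoters), CACCC in 4 (54.7%), TGACG in 4 (21.2%), CACGTG in 4 (6.34%) and the CArG box in 1 (1.16%). KLF5, KLF7 and KLF11 have several starts, which gives them more than 1 window. The matches are letters in these windows and show no binding. KLF3 and KLF10 were not searched.

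KLF13 (chr15:31326835-31435665, plus strand), first known as an activator of the chemokine gene CCL5 in lymphocytes, had the largest difference between the lines at 48 h among the members. The 3 CTRL libraries had 17.0, 18.0 and 18.0 CPM at 0 h, 18.8, 16.3 and 16.7 CPM at 8 h, 14.6, 14.6 and 15.0 CPM at 24 h, and 14.1, 13.7 and 15.9 CPM at 48 h. The C/EBPδ-inducible libraries had 28.1, 26.5 and 26.6 CPM at 0 h, 32.5, 30.8 and 31.5 CPM at 8 h, 35.2, 30.5 and 33.5 CPM at 24 h, and 40.1, 44.7 and 43.1 CPM at 48 h. Every inducible library lay above every CTRL library, and the order of the group means was 48, 24, 8 and 0 h in CTRL cells followed by 0, 8, 24 and 48 h in inducible cells. In that order, the neighbours 48 and 24 h and 8 and 0 h of CTRL cells and 8 and 24 h of inducible cells overlapped. The difference between the lines was 0.60 on the log2 scale at 0 h (SE 0.06, adjusted p = 1.1e-07) and 1.55 at 48 h (SE 0.08, adjusted p = 2.02e-09), a fold change of 1.52 and of 2.92. In inducible cells, KLF13 rose from 0 h by a log2 fold change of 0.22 at 8 h (adjusted p = 0.00336), 0.29 at 24 h (adjusted p = 0.000788) and 0.65 at 48 h (adjusted p = 3.48e-10). The call at 8 h was lost with DESeq2 (adjusted p = 0.0142), the model of all 24 libraries, the analysis of variance, and without replicate 2 or 3 of inducible cells at 0 h or replicate 1 at 8 h (adjusted p = 0.0155 to 0.0278). The call at 24 h was lost by the analysis of variance (adjusted p = 0.074). CTRL cells had a log2 fold change of -0.26 at 24 h and -0.28 at 48 h, neither of which passed the test (adjusted p = 0.0173 and 0.0185), though the fall at 48 h was called with the model of all 24 libraries (adjusted p = 0.00347). The change in inducible cells exceeded that in CTRL cells by 0.56 on the log2 scale at 24 h (95% interval 0.37 to 0.75, adjusted p = 0.000125) and by 0.92 at 48 h (0.71 to 1.14, adjusted p = 5.03e-06). Over all alternatives, these interactions ranged from 0.52 to 0.60 and from 0.88 to 0.99 and kept their call. At 8 h the interaction was 0.25 and was not called (adjusted p = 0.144).

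KLF2 (chr19:16324826-16328685, plus strand), the shear-stress factor of endothelium and a factor of T cell quiescence, was lower in inducible cells and fell there, opposite in direction to KLF13. CTRL libraries had 63.9, 64.3 and 65.3 CPM at 0 h, 60.5, 56.5 and 57.4 CPM at 8 h, 63.5, 60.2 and 61.2 CPM at 24 h, and 53.7, 54.9 and 52.8 CPM at 48 h. Inducible libraries had 32.2, 34.4 and 34.8 CPM at 0 h, 23.4, 24.1 and 24.4 CPM at 8 h, 26.0, 25.9 and 24.6 CPM at 24 h, and 26.1, 26.0 and 26.9 CPM at 48 h. All inducible libraries were lower than all CTRL libraries, and along the order of the 8 group means only the neighbours 8 and 24 h of CTRL cells overlapped. KLF2 was thus lower in inducible cells at every time, by 1.92-fold at 0 h (log2 fold change -0.94, SE 0.05, adjusted p = 1.81e-12), 2.43-fold at 8 h and at 24 h, and 2.05-fold at 48 h. Within inducible cells it fell by 0.51 at 8 h, 0.41 at 24 h and 0.37 at 48 h on the log2 scale (adjusted p = 3.01e-07, 7.14e-06 and 4.53e-06), and the analysis of variance did not call the change at 24 h (adjusted p = 0.0144). The fall was present at 8 h, the first time after 0 h. In CTRL cells KLF2 fell by 0.27 at 48 h (adjusted p = 0.00136), a call that was lost without replicate 3 at 48 h (adjusted p = 0.0117). The change from 0 h was lower in inducible cells by 0.34 at 24 h (log2 fold change -0.34, 95% interval -0.47 to -0.20, adjusted p = 0.000723), with a call in every alternative. At 8 h the same difference was -0.36 (adjusted p = 0.00909), but the call was lost in 14 of 19 alternatives, including DESeq2 (adjusted p = 0.014), the replicate block (adjusted p = 0.0248) and the removal of 10 of the 12 libraries, that is, any but replicates 1 and 3 of CTRL cells at 8 h (adjusted p = 0.0125 to 0.0362). At 48 h the interaction was -0.12 and was not called (adjusted p = 0.354).

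KLF4 (chr9:107484852-107490482, minus strand), one of the reprogramming factors and a brake on the epithelial cell cycle, fell with time in both lines. CTRL libraries had 49.0, 50.4 and 48.2 CPM at 0 h, 47.1, 47.3 and 51.4 CPM at 8 h, 43.2, 38.9 and 38.7 CPM at 24 h, and 27.6, 27.2 and 28.7 CPM at 48 h. Inducible libraries had 53.3, 57.5 and 55.8 CPM at 0 h, 53.6, 53.8 and 53.5 CPM at 8 h, 37.9, 36.1 and 37.5 CPM at 24 h, and 24.5, 22.5 and 24.4 CPM at 48 h. Inducible libraries were the higher ones at 0 and 8 h and the lower ones at 24 and 48 h, without overlap at any time. The fall from 0 to 48 h was 0.83 on the log2 scale in CTRL cells (adjusted p = 8.03e-07) and 1.24 in inducible cells (adjusted p = 5.4e-16), which is 1.77-fold and 2.36-fold. The fall was larger in inducible cells by 0.42 at 48 h (log2 fold change -0.42, 95% interval -0.58 to -0.25, adjusted p = 0.0016), and this call held in all 19 alternatives. At 24 h KLF4 had fallen by 0.29 in CTRL cells (adjusted p = 0.000628, but 0.0119 without replicate 2 at 24 h and 0.0886 by the analysis of variance) and by 0.58 in inducible cells (adjusted p = 9.92e-10). The interaction at 24 h was -0.28 (adjusted p = 0.00748), but it was lost in 12 of 19 alternatives, with adjusted p = 0.0117 by DESeq2, 0.0143 with the replicate block and up to 0.0358 without 1 of 8 libraries, replicates 2 and 3 of inducible cells at 0 and at 24 h, 1 and 3 of CTRL cells at 0 h, and 1 and 2 at 24 h. Between the lines, the difference at 0 h was called (log2 fold change 0.17, SE 0.05, adjusted p = 0.00436) and those at later times were not, but with the model of all 24 libraries the difference at 48 h was called in the opposite direction (log2 fold change -0.23, adjusted p = 0.00126). The call at 0 h was lost with DESeq2 (adjusted p = 0.0185), by the analysis of variance (adjusted p = 0.027) and without replicate 2 or 3 of inducible or replicate 1 or 3 of CTRL cells (adjusted p = 0.0104 to 0.0385). Exons of KLF4 overlap those of ENSG00000289987 on the other strand. Since the strand setting of the counting is not given in the sources used here, reads of the pair may not be separated.

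KLF5 (chr13:73054976-73077541, plus strand), a factor of proliferating epithelium, was scarce. CTRL libraries had 2.58, 1.97 and 3.08 CPM at 0 h, 1.62, 2.93 and 2.14 CPM at 8 h, 3.03, 1.55 and 2.84 CPM at 24 h, and 1.35, 2.82 and 2.11 CPM at 48 h. Inducible libraries had 2.72, 2.61 and 1.58 CPM at 0 h, 3.68, 5.15 and 4.40 CPM at 8 h, 3.95, 5.00 and 3.65 CPM at 24 h, and 4.98, 4.19 and 3.50 CPM at 48 h. The lines overlapped at 0 h, and all 9 inducible libraries of the later times lay above every CTRL library of any time. These levels rested on 27 to 105 counts per library. Within inducible cells, KLF5 rose from 0 h by 0.92 at 8 h, 0.86 at 24 h and 0.85 at 48 h on the log2 scale (adjusted p = 0.000565, 0.00129 and 0.000433), and the levels at 8, 24 and 48 h overlapped. The call at 24 h was lost with the model of all 24 libraries (adjusted p = 0.0173) and without replicate 3 at 0 h or replicate 2 at 24 h (adjusted p = 0.0164 and 0.0135). Between the lines, KLF5 did not differ detectably at 0 h (log2 fold change -0.15, 95% interval -0.62 to 0.31), and it was higher in inducible cells by 1.00 at 8 h, 0.77 at 24 h and 1.03 at 48 h (adjusted p = 0.0033, 0.00136 and 0.00198). Each of these calls was lost when single libraries were left out: replicate 2 or 3 of inducible cells at 8 h (adjusted p = 0.0256 and 0.0124), replicate 2 of either line at 24 h (adjusted p = 0.0122 in inducible and 0.0221 in CTRL cells), and replicate 1 of inducible cells at 48 h (adjusted p = 0.0151). The analysis of variance called KLF5 in none of these comparisons within inducible cells or between the lines (adjusted p = 0.0589 to 0.128 after 0 h). It used log2 of CPM + 1, which makes differences smaller at such low levels. Between the lines it gave 0.75, 0.60 and 0.78 at 8, 24 and 48 h. The interaction was 1.14 at 8 h, 0.92 at 24 h and 1.16 at 48 h with adjusted p = 0.0628, 0.0728 and 0.0384, so that a different change in the 2 lines was not called. Without the filter on low counts, it was called at 8 and 48 h (adjusted p = 0.00244 and 0.000663), as it was at 48 h without replicate 2 of CTRL cells at 48 h (adjusted p = 0.00934).

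KLF6 (chr10:3775996-3785281, minus strand), a tumor suppressor candidate reported to activate CDKN1A, changed within both lines. In CTRL cells it had 247 ± 2.83 CPM at 0 h, 239 ± 16.8 at 8 h, 183 ± 7.77 at 24 h and 167 ± 7.48 at 48 h (SD, n = 3). In inducible cells it had 273 ± 3.44, 309 ± 3.85, 182 ± 4.76 and 211 ± 7.58 CPM at the same times (SD, n = 3). Its course in inducible cells was thus up at 8 h, down at 24 h and partly back at 48 h, whereas CTRL cells declined from 24 h on. The changes called were a fall of 0.43 at 24 h and 0.57 at 48 h on the log2 scale in CTRL cells (adjusted p = 2.26e-08 and 1.32e-06), and in inducible cells a rise of 0.17 at 8 h and a fall of 0.58 at 24 h and of 0.38 at 48 h (adjusted p = 5.77e-05, 6.92e-13 and 1.31e-10). Between the lines, KLF6 was higher in inducible cells by 0.13 at 0 h, 0.37 at 8 h and 0.33 at 48 h (adjusted p = 0.000593, 0.000311 and 8.02e-05), and at 24 h the libraries of the lines overlapped (log2 fold change -0.02, 95% interval -0.09 to 0.06). The analysis of variance ended the calls between the lines at 8 and 48 h (adjusted p = 0.0161 and 0.0114) and that in CTRL cells at 24 h (adjusted p = 0.0217). The interaction was 0.22, -0.15 and 0.18 at 8, 24 and 48 h and was not called (adjusted p = 0.051, 0.0379 and 0.0397). Without replicate 3 of CTRL cells at 8 h, the highest CTRL library of that time, it was called at 8 h (log2 fold change 0.28, adjusted p = 0.00174).

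KLF3 (chr4:38664197-38701517, plus strand), the CtBP-dependent repressor, was flat in CTRL cells and lower in inducible cells at 24 and 48 h. CTRL libraries had 83.3, 83.0 and 81.5 CPM at 0 h, 69.8, 85.7 and 91.2 CPM at 8 h, 86.5, 86.7 and 83.1 CPM at 24 h, and 77.7, 89.8 and 89.0 CPM at 48 h. Inducible libraries had 69.8, 75.1 and 70.4 CPM at 0 h, 75.0, 71.2 and 77.3 CPM at 8 h, 58.6, 64.5 and 64.2 CPM at 24 h, and 62.5, 61.6 and 64.7 CPM at 48 h. The lines did not overlap at 0, 24 and 48 h. At 8 h they did, because replicate 1 of CTRL cells lay at 69.8 CPM. The difference between the lines was -0.21 at 0 h, -0.46 at 24 h and -0.44 at 48 h on the log2 scale (adjusted p = 0.000154, 7.91e-10 and 6.29e-05). The call at 0 h was lost with the model of all 24 libraries (adjusted p = 0.0182) and that at 48 h by the analysis of variance (adjusted p = 0.0148). At 8 h it was -0.15 and not called (adjusted p = 0.205), and without that replicate it was -0.26 and called (adjusted p = 0.000417). In inducible cells KLF3 fell by 0.20 at 24 h (adjusted p = 0.00209) and by 0.20 at 48 h (adjusted p = 0.000247). The call at 24 h was lost without replicate 2 at 0 h (adjusted p = 0.0272) or replicate 1 at 24 h (adjusted p = 0.0101), and with the model of all 24 libraries both were (adjusted p = 0.0468 at 24 h and 0.0313 at 48 h), as by the analysis of variance (adjusted p = 0.105 and 0.021). The change differed between the lines at 24 h (log2 fold change -0.24, adjusted p = 0.00645), but not in 11 of 19 alternatives, which included the model of all 24 libraries (adjusted p = 0.156) and 9 of the 12 removals of a library, all but replicates 2 and 3 of inducible and replicate 3 of CTRL cells at 24 h (adjusted p = 0.0103 to 0.0404). At 48 h it was -0.26 (adjusted p = 0.0348), and it was called without replicate 1 of CTRL cells at 48 h (adjusted p = 0.000551). KLF3-AS1, whose exons overlap on the other strand, had 2 to 10 counts per library, against 984 to 1901 for KLF3.

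KLF9 (chr9:70384604-70414657, minus strand), a SIN3A-dependent repressor that glucocorticoids and the circadian clock induce in many tissues, had the widest range of group means, 4.55-fold from the lowest to the highest. CTRL libraries had 10.8, 12.3 and 11.3 CPM at 0 h, 11.0, 9.09 and 11.4 CPM at 8 h, 10.5, 10.7 and 11.8 CPM at 24 h, and 21.4, 27.3 and 25.0 CPM at 48 h. Inducible libraries had 5.70, 5.31 and 5.18 CPM at 0 h, 5.73, 7.65 and 6.75 CPM at 8 h, 6.85, 6.77 and 5.94 CPM at 24 h, and 10.1, 10.4 and 10.9 CPM at 48 h. KLF9 was lower in every inducible library than in any CTRL library of the same time, and at 48 h the inducible libraries reached the range of CTRL cells at 8 h. The difference between the lines was -1.09 at 0 h, -0.65 at 8 h, -0.77 at 24 h and -1.23 at 48 h on the log2 scale (adjusted p = 2.03e-08, 0.00214, 2.86e-07 and 2.41e-07). At 8 h the call was lost without replicate 1 of inducible cells (adjusted p = 0.0146) and by the analysis of variance. The rise at 48 h was 1.09 in CTRL cells (SE 0.10, adjusted p = 4.68e-06) and 0.94 in inducible cells (SE 0.10, adjusted p = 2.63e-08). These rises did not differ detectably (interaction -0.16, 95% interval -0.46 to 0.14, adjusted p = 0.57). The libraries of 8 and 24 h overlapped those of 0 h in CTRL cells, and in inducible cells all 6 libraries of these times were above 0 h without passing the test (adjusted p = 0.0575 and 0.0886).

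KLF10 and KLF11, both induced by TGF-β in epithelial cells, were higher in inducible cells at every time. KLF10 had group means of 19.9 to 26.5 CPM in CTRL cells and 37.2 to 40.6 CPM in inducible cells, and no inducible library fell under 36.8 CPM or CTRL library rose over 29.4 CPM. The difference widened from 0.53 at 0 h to 0.60, 0.79 and 0.95 at 8, 24 and 48 h on the log2 scale (adjusted p = 5.5e-08, 0.000176, 1.12e-10 and 3.07e-07), with the call at 8 h lost by the analysis of variance (adjusted p = 0.0173). In CTRL cells KLF10 fell by 0.36 at 48 h (adjusted p = 0.00351), a call lost with the replicate block (adjusted p = 0.0112), by the analysis of variance, and without any of the 3 replicates at 0 h or replicate 3 at 48 h (adjusted p = 0.0116 to 0.0247). In inducible cells no time differed from 0 h at an FDR of 0.01 (log2 fold change 0.11, 0.13 and 0.04 at 8, 24 and 48 h), but the rise at 24 h was called without replicate 1 at 24 h (log2 fold change 0.18, adjusted p = 0.00896). The interaction at 48 h was 0.39 with adjusted p = 0.0103, just short of a call, and it was called by DESeq2 (adjusted p = 0.00503), with median-ratio scaling (0.00803), without the filter (0.00558), with a minimum of 10 counts (0.00404) and without replicate 2 of CTRL cells at 48 h (0.000757). At 24 h it was 0.26 (adjusted p = 0.0718, and 0.00969 without replicate 1 of CTRL cells at 24 h).

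KLF11 (chr2:10042849-10054836, plus strand) had group means of 4.90 to 6.05 CPM in CTRL cells and 8.33 to 11.0 CPM in inducible cells. The difference was 0.85, 0.93, 0.76 and 0.76 at 0, 8, 24 and 48 h on the log2 scale (adjusted p = 1.5e-06, 5.96e-05, 3.34e-06 and 0.000209), and the analysis of variance called neither 24 h nor 48 h (adjusted p = 0.0111 and 0.0225). The lines did not overlap at any time, and neighbouring CTRL groups all overlapped with each other. No change from 0 h was called in either line, and the interaction was 0.07, -0.09 and -0.12 at 8, 24 and 48 h (95% intervals -0.26 to 0.39, -0.41 to 0.23 and -0.47 to 0.23). KLF11 was therefore a member that differed between the lines with no change called after 0 h. ENSG00000271787, which overlaps its exons on the other strand, had 0 to 2 counts per library.

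**Figure D2:**
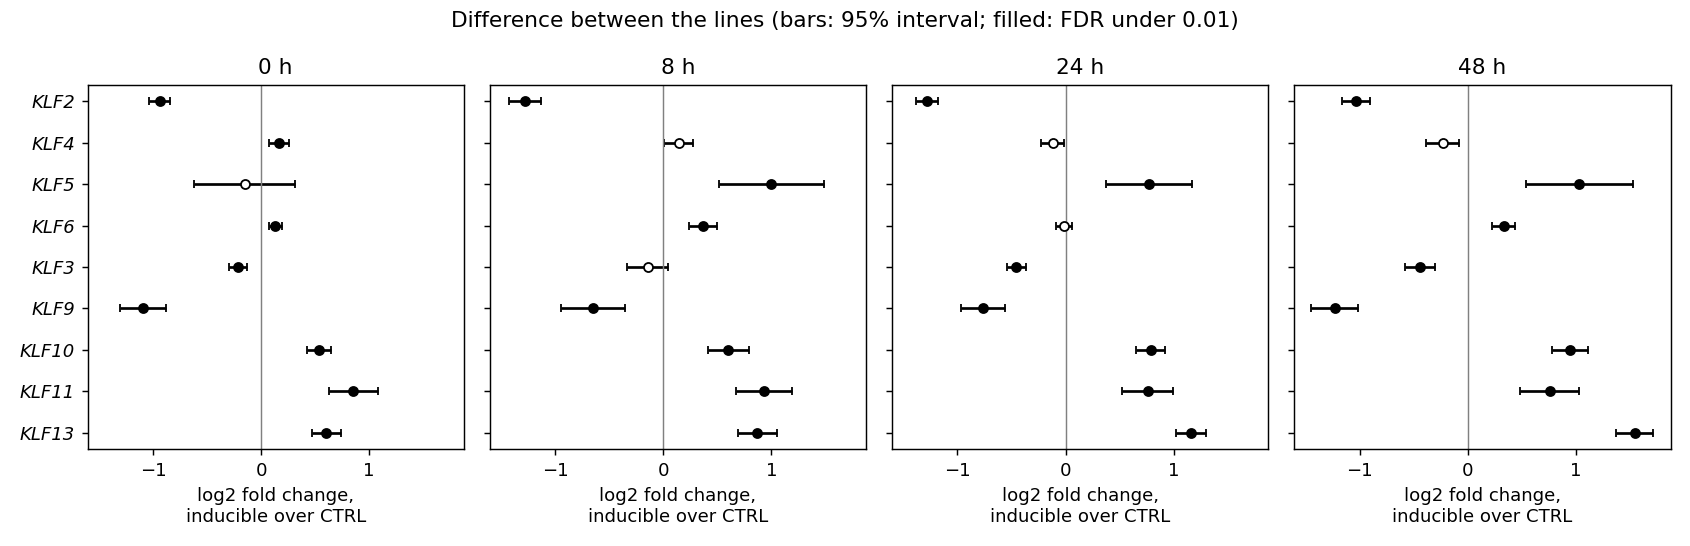
Difference between the lines as the log2 fold change of C/EBPδ-inducible over CTRL cells (horizontal axis) for the 9 members tested, at 0, 8, 24 and 48 h, with 95% intervals from edgeR; filled points have an FDR under 0.01. KLF2 and KLF9 lay below 0 and KLF10, KLF11 and KLF13 above 0 at all times, and KLF5 moved from -0.15 at 0 h to 1.00 at 8 h.

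Over the family, differences between the lines were present before doxycycline. At 0 h, 8 of 9 members were called, 5 higher and 3 lower, against 43.9% of all 15317 genes tested (20% higher and 23.9% lower). At 8 h, 7 were called, 5 higher and 2 lower, where 31.8% of all genes were (14.3% and 17.4%). At 24 h, 7 were called, 4 higher and 3 lower, beside 46.9% of all genes (21.5% and 25.3%). At 48 h, 8 were called, 5 higher and 3 lower, beside 38.3% of all genes (17.6% and 20.7%). The median absolute difference of the members was 0.53, 0.65, 0.77 and 0.95 on the log2 scale at 0, 8, 24 and 48 h, compared with 0.25, 0.27, 0.26 and 0.27 over all genes. Libraries of the lines did not overlap for 8, 8, 8 and 9 of the 9 members, with 60.2%, 54.4%, 61.8% and 57.1% of all genes. KLF2 and KLF9 were lower and KLF10, KLF11 and KLF13 higher at each of the 4 times. The 4 comparisons share no library but set the same 2 lines against each other, so that they are not independent repeats.

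In CTRL cells at 8 h, none of the 9 was called by edgeR, none had an unadjusted p under 0.05, and DESeq2 and the analysis of variance called none. By edgeR 1.7% of all genes were called at that time, 0.905% higher and 0.793% lower. At 24 h KLF4 and KLF6 were called, 2 of 9 and both lower, beside 6.06% of all genes (2.81% higher and 3.25% lower), and the median absolute change was 0.12 for the members and 0.10 for all genes. At 48 h KLF2, KLF4, KLF6 and KLF10 were lower and KLF9 was higher, 5 of 9, beside 30% of all genes (15.2% higher and 14.7% lower). Within inducible cells, 4 members were called at 8 h, 3 higher and 1 lower, beside 30.5% of all genes (14.6% higher and 15.8% lower). At 24 h 6 were called, with KLF5 and KLF13 higher and KLF2, KLF3, KLF4 and KLF6 lower, beside 15.5% of all genes (7.33% higher and 8.14% lower). At 48 h KLF9 joined the higher and 7 were called, beside 38.7% of all genes (19.1% higher and 19.5% lower). All comparisons within a line share its 0 h libraries.

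The interaction asked whether the change from 0 h differed between the lines, and it uses the same 0 h libraries at each time. KLF2 was called at 8 h with a lower change, 1 of 9 beside 1.66% of all genes (0.887% higher and 0.77% lower). At 24 h KLF2, KLF3 and KLF4 were lower and KLF13 higher, 4 of 9 beside 5.84% (2.86% higher and 2.98% lower). At 48 h KLF4 was lower and KLF13 higher, 2 of 9 beside 5.54% (2.83% higher and 2.72% lower). Of these 7 calls, KLF2 and KLF13 at 24 h and KLF4 and KLF13 at 48 h held under all 19 alternatives. The call of KLF13 was the sole one in the upward direction. KLF9, KLF10 and KLF11, its SIN3A-binding relatives, were not called in any interaction. Of these, KLF10 at 48 h lay just short of a call (0.39, adjusted p = 0.0103) and was called in some alternatives.

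**Figure D3:**
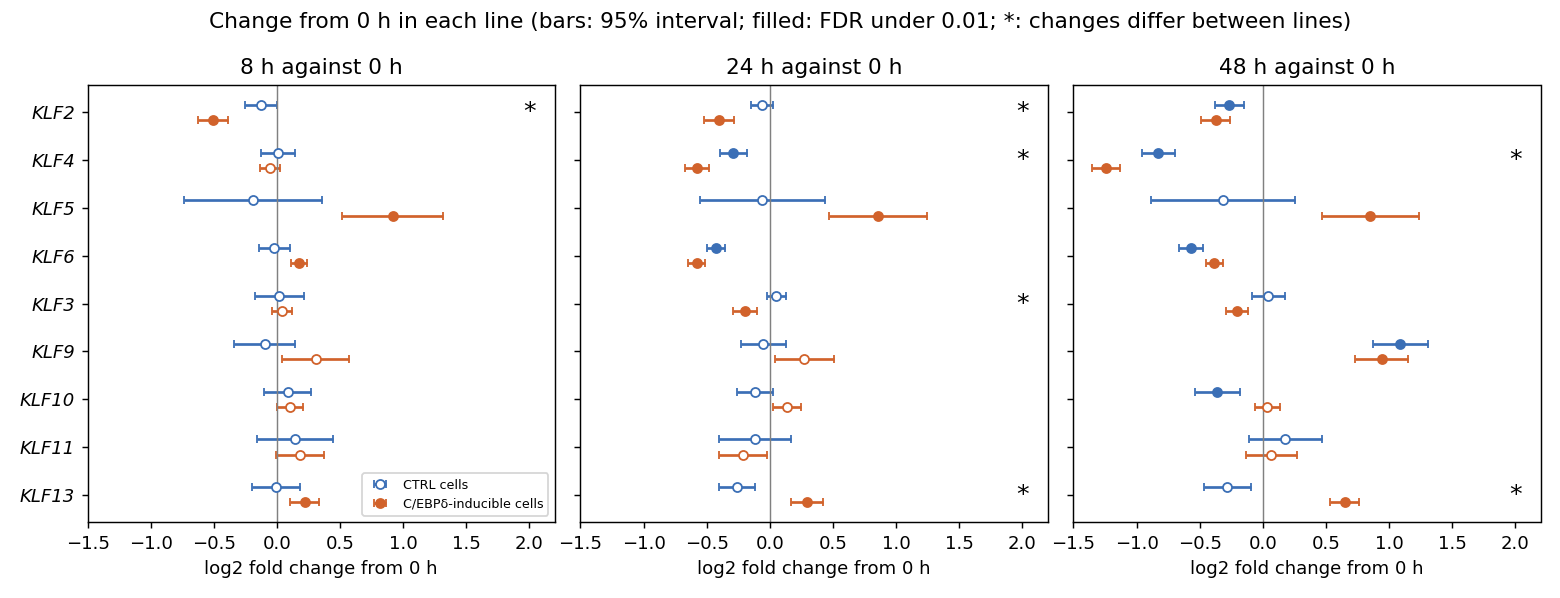
Change from 0 h (log2 fold change, horizontal axis) of the 9 members tested at 8, 24 and 48 h in CTRL cells (blue) and C/EBPδ-inducible cells (orange), with 95% intervals from edgeR; filled points have an FDR under 0.01, and an asterisk marks members whose change differed between the lines at that FDR. KLF13 went up by 0.65 in inducible cells at 48 h with -0.28 in CTRL cells, whereas KLF9 went up in both by 0.94 and 1.09.

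Genes near the members were examined because lines of separate clones can differ over whole regions. Of all genes, 20% were higher and 23.9% lower at 0 h. Within 2 Mb of KLF9, 9 of 14 genes tested were lower in inducible cells at 0 h and the other 5 were not called, with a median log2 fold change of -0.59 beside -1.09 for KLF9. At 24 h the median of these 14 genes was -0.62, again with 9 lower. Near KLF6, 8 of 11 genes were higher and 1 was lower (median 0.30, beside 0.13 for KLF6). KLF11 and KLF4 went against their surroundings at 0 h: 14 of 28 genes near KLF11 were lower and 1 was higher, and 7 of 15 near KLF4 were lower and 1 was higher, whereas both members were higher. The call of KLF4 at 0 h (0.17) was lost in 6 of 13 alternatives. At 24 h KLF4 (-0.12, not called) lay on the side of its surroundings (median -0.29, 7 of 15 lower and 1 higher). KLF11 (0.76) did not at 24 h (median -0.29, 12 of 30 lower and 1 higher). Near KLF13, 2 of 15 genes were higher and 1 was lower (median 0.01), near KLF2, 21 of 81 were higher and 12 lower (median 0.12), near KLF10, 5 of 17 were higher and 3 lower, and near KLF3, 4 of 21 were higher and 4 lower. Of the 4 genes tested near KLF5, PIBF1 did not differ detectably at 0 h (log2 fold change -0.02, SE 0.07) or 24 h (0.00, SE 0.06), and DIS3 was higher at 0 h (0.24, adjusted p = 6.81e-06) and 24 h (0.15, adjusted p = 0.00214). KLF7 had 14 tested genes near it, 3 higher and 7 lower. The part of the surrounding region in the differences of the members was not tested.

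**Figure D4:**
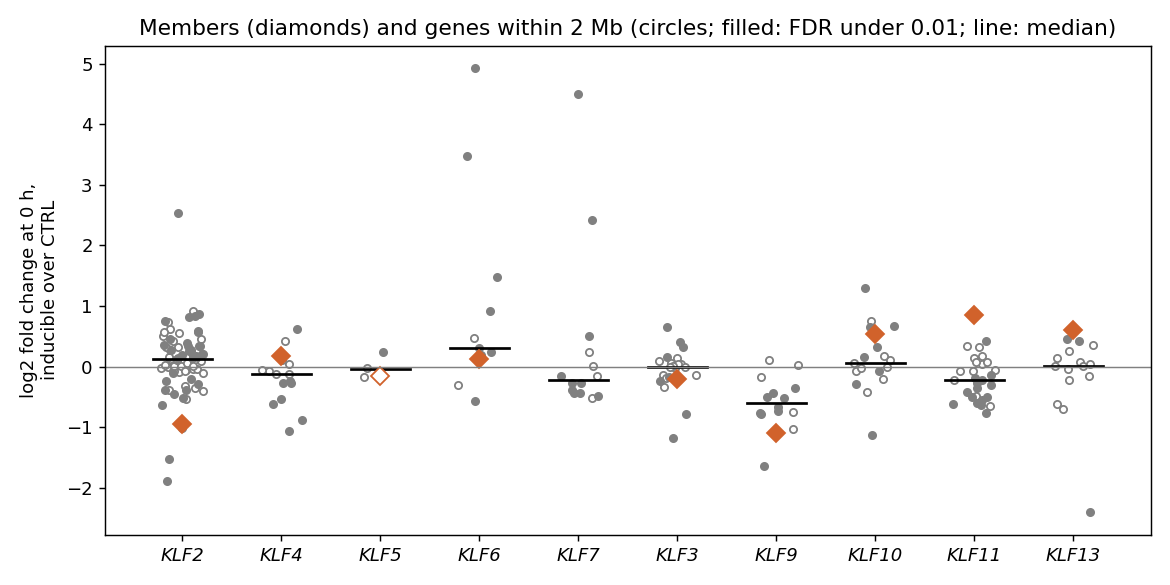
Difference between the lines at 0 h (log2 fold change of C/EBPδ-inducible over CTRL cells, vertical axis) of each member tested (diamond) and of the genes tested within 2 Mb of it (circles, spread sideways for legibility; bar at their median); filled symbols have an FDR under 0.01, and KLF7 itself was not tested. The genes near KLF9 centred on -0.59, those near KLF6 on 0.30, and KLF11 at 0.85 stood above genes with a median of -0.22.

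For the 3 members with the widest range of group means, the protein-coding genes whose log2 levels followed them most closely over the 24 libraries were listed from 11242 genes with a mean of at least 1 CPM. KLF9 was followed by PPARA (Pearson r = 0.97), the nuclear receptor of fatty acid oxidation, SERPINB6 (0.97), a protease inhibitor, and STAT2 (0.97) of the interferon response. PPARA had 24.0 CPM in CTRL and 16.1 CPM in inducible cells at 0 h, and 40.8 and 22.5 CPM at 48 h, the shape of KLF9. KLF13 was followed by CDKN1A (0.98), the cell cycle inhibitor p21, SIPA1L2 (0.97) and ACOX2 (0.97), an oxidase of peroxisomes. CDKN1A rose from 14.2 to 30.2 CPM between 0 and 48 h in inducible cells and had 5.08 and 5.09 CPM in CTRL cells. KLF2 was followed by HIVEP3 (0.99), CLDN11 (0.99), a tight junction protein, and BEGAIN (0.99). The libraries fall into 8 groups of 2 lines, so that these r values mostly describe group means and are no independent support.

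The other KLF and SP genes were less often measurable than the members. Of 17, 7 were tested at 24 h, and 4 differed between the lines (1 higher and 3 lower, median log2 fold change -0.05), beside 46.9% of all genes with a median of 0.01. KLF15, which metabolic tissues express, was lower in inducible cells (-0.48, adjusted p = 0.0033), as were the general GC-box activators SP3 (-0.35, adjusted p = 3.6e-08) and SP1 (-0.11, adjusted p = 0.00606), and SP6 was higher (1.41, adjusted p = 0.00383) at 0.298 and 0.784 CPM. In the interaction at 24 h, none of the 7 was called by edgeR, 1 had an unadjusted p under 0.05, and DESeq2 called none. Between the lines at 0 h, 3 of the 7 differed, beside 43.9% of all genes.

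Partners through which KLF proteins act were all measured. Of 11 cofactors, 7 differed between the lines at 24 h (4 higher and 3 lower, median -0.02), where 46.9% of all genes did, with a median of 0.01. The acetyltransferase gene KAT2B (-0.98, adjusted p = 3.17e-08) and FHL3, which binds KLF3 (-1.37, adjusted p = 4.48e-10), were lower, CTBP2 was slightly lower (-0.12, adjusted p = 0.00927) and SIN3A slightly higher (0.12, adjusted p = 0.00458). None of the 11 was called in the interaction by edgeR or DESeq2 (5.84% of all genes by edgeR), and 3 had an unadjusted p under 0.05. At 0 h, 4 of the 11 cofactors differed between the lines, beside 43.9% of all genes. Of 14 genes of enzymes that modify or degrade KLF proteins, 10 differed at 24 h, beside the same 46.9% (5 higher and 5 lower, median 0.06), among them the SUMO ligase PIAS1 (-0.23), the ubiquitin ligase SMURF1 (-0.19) and MAP2K5 (0.31) of the ERK5 pathway. The ubiquitin ligases SMURF2 (1.07, adjusted p = 4.67e-19) and WWP1 (-1.13, adjusted p = 7.73e-17) differed more between the lines and are named after their values were seen. In the interaction at 24 h none of the list was called by edgeR, 4 had an unadjusted p under 0.05, and DESeq2 called 1. Between the lines at 0 h, 5 of the 14 differed, beside 43.9% of all genes.

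Upstream of the members, 13 of 19 tested regulators of KLF genes differed between the lines at 24 h (5 higher and 8 lower, median -0.04), and 5 of 20 were called in the interaction, 1 higher and 4 lower. The shares of all genes were 46.9% and 5.84%. STAT3 (interaction -0.57, adjusted p = 1.01e-10), the glucocorticoid receptor gene NR3C1 (-0.42, adjusted p = 8.97e-06) and MEF2A (-0.36, adjusted p = 0.00223), whose product drives KLF2 transcription in endothelium, were called with a lower change in inducible cells, and CEBPB was higher at 24 h (0.38, adjusted p = 1.33e-06) with an interaction of -0.31 (adjusted p = 0.0228). Of the adipocyte factors, 6 of 7 tested differed at 24 h (5 higher and 1 lower, median 0.38), and 2 were called in the interaction, GATA2 (0.26) and CEBPG (-0.26), while ZNF423 lay at 0.321 and 0.874 CPM and its interaction was not called. GATA2 (0.90) and CEBPG (0.37) were both higher in inducible cells at 24 h. At 0 h, 11 of 20 tested regulators and 4 of 7 tested adipocyte factors differed between the lines, beside 43.9% of all genes.

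Downstream, 10 of 12 tested genes reported as KLF targets differed at 24 h (6 higher and 4 lower, median 0.27), and 5 were called in the interaction, 3 higher and 2 lower, beside 46.9% and 5.84% of all genes. At 0 h, 9 of the 12 already differed (5 higher and 4 lower, median 0.30), beside 43.9% of all genes. CDKN1A was higher at 24 h (2.41, adjusted p = 1.21e-16) and its interaction was 0.94 (adjusted p = 0.000188). CCL5 had 0.13 ± 0.0337 CPM in CTRL and 2.66 ± 0.295 CPM in inducible cells at 24 h (SD, n = 3), the former near the level of 3 counts. At 0 h it had 0.0174 CPM in CTRL cells, under that level, and 2.12 CPM in inducible cells, and its interaction at 24 h was not called (adjusted p = 0.2395, with a fitted value of -2.10 that depends on the CTRL level). TGFBI (0.84) and SMAD7 (2.15) were higher at 24 h. Their interactions were fitted at -0.74 and -0.73 and were not called (adjusted p = 0.228 and 0.188).

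The gene groups that respond to the signals which induce KLF genes differed as follows at 24 h, when 46.9% of all genes differed between the lines (median 0.01) and 5.84% were called in the interaction. Of 14 immediate early genes, 12 differed between the lines (7 higher and 5 lower, median 0.41) and 5 were called in the interaction, 4 higher and 1 lower. Among these were IER3 (0.97), EGR1 (0.89) and JUNB (0.64), and FOS at 0.69 was not called (adjusted p = 0.0664). Between the lines at 24 h, EGR1 (-0.74) and FOS (-0.81) were lower in inducible cells, and IER3 (0.88) and JUNB (0.34) were higher. Of 7 glucocorticoid-responsive genes, 5 differed (3 higher and 2 lower, median 0.24), and CRISPLD2 (-0.78, adjusted p = 5.73e-10) and ERRFI1 (0.39, adjusted p = 6.89e-10) were called in the interaction, while DUSP1 (0.62) and FKBP5 (-0.67) differed between the lines without it. Of 11 clock output genes, 8 differed (1 higher and 7 lower, median -0.32), and 4 were called in the interaction, BHLHE40 higher (0.98) and NR1D2 (-0.73), TEF (-0.68) and NR1D1 (-0.58) lower. Of 12 TGF-β responsive genes, 10 differed (9 higher and 1 lower, median 0.65), and 5 were called in the interaction, 3 higher and 2 lower. BHLHE40, also on this list, was one of the former, and PMEPA1 (-0.61) was one of the latter. BHLHE40, PER1, DUSP1, TGFBI, SMAD7, CEBPA, CEBPB and CEBPG are each on 2 of the lists, so that the counts of the lists are not separate. Differences between the lines were present before doxycycline, when 43.9% of all genes differed. At 0 h, 11 of the 12 TGF-β responsive genes differed (10 higher and 1 lower, median 0.54). So did 10 of the 14 immediate early, 6 of the 7 glucocorticoid-responsive and 6 of the 11 clock output genes.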

How the data were processed

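Per the labels and the study's methods, the libraries were of total RNA without ribosomal RNA, and the authors used HISAT2 to align the trimmed reads (GRCh38) and HTSeq for the counts of Ensembl genes. The deposited counts of 60675 identifiers are not normalized, filtered or pooled. The strand setting of HTSeq and how it treated reads shared by genes are not given in the sources used here.

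Gene names, positions and exon lengths came from GENCODE 44 (56558 identifiers matched), a later annotation on the same build. In R 4.3.3, counts were scaled with TMM, and edgeR 4.0.16 gave quasi-likelihood tests over the groups of each comparison after filterByExpr. P values were two-sided and adjusted over all genes tested with the Benjamini-Hochberg method. Standard errors and 95% intervals follow from the F statistic. The 13 comparisons were the lines at 4 times, 3 times against 0 h in each line, and 3 interactions of line and time. The alternatives were DESeq2 1.42.0, median-ratio scaling, no filter, a minimum of 10 counts per library, 1 model over all 24 libraries, a block for the replicate number, the authors' choice of an analysis of variance (here on log2 of CPM + 1), an FDR of 0.05, and leaving out each library. Same-numbered replicates deviated together with every correlation above 0.1 for CTRL cells at 24 h against 0 h (0.115 to 0.141) and in no other comparison. There the numbers, which come from the labels, count as pairs, and the block changed no member's call in that comparison. In the interaction at 24 h, which holds the same CTRL libraries, it ended the call of KLF4. The fits were tested on simulated data.

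The members and the lists of other genes were chosen with earlier results of these data known. All 10 members were examined in every comparison, KLF7 without a test, and some values that were not called are not printed. From each list, at most 4 genes called at 24 h are named, by the size of the interaction, and 2 genes of these lists are not reported here.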

Additional observations from a re-analysis of the deposited data

Results flagged for a closer look

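The change from 0 h differed between the lines, by the test of the difference itself, for 4 members. KLF13 was the one called with a larger rise in C/EBPδ-inducible cells, by a log2 fold change of 0.56 at 24 h and 0.92 at 48 h. KLF5, with few counts, had larger fitted differences at these times (0.92 and 1.16) that were not called (adjusted p = 0.0728 and 0.0384). KLF10 at 48 h (0.39) fell just short of a call (adjusted p = 0.0103). KLF4 fell further in inducible cells, with differences of -0.28 at 24 h and -0.42 at 48 h. KLF2 fell further by -0.36 at 8 h and -0.34 at 24 h, and KLF3 by -0.24 at 24 h. The values at 8 h and 24 h and those at 48 h share the libraries of 0 h. KLF2 at 8 h, KLF3 at 24 h and KLF4 at 24 h lost their call when 1 of several libraries was left out, and the other 4 calls were kept.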

How the results depend on the processing

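Of 61 member calls, 34 held in every alternative run, 27 were lost in some, and none reversed. With the analysis of variance, the members called were 3 between the lines at 8 h, 4 at 48 h, 0 in CTRL cells at 24 h, 2 in inducible cells at 8 h and at 24 h, 0 in the interaction at 8 h and 2 at 24 h. All genes called were then 3854, 2317, 4317 and 3167 between the lines at 0, 8, 24 and 48 h, 1, 39 and 1659 in CTRL cells and 1239, 498 and 2238 in inducible cells at 8, 24 and 48 h, and 82 and 569 in the interaction at 8 and 24 h. In the interaction at 8 h, DESeq2, median-ratio scaling and the replicate block called 0 members (KLF2 in edgeR), and no filter called 2. At 24 h the model of all 24 libraries called 2, and at 48 h no filter called 4 and an FDR of 0.05 called 6. Over all genes, edgeR called 259 in CTRL cells at 8 h and 269 in the interaction at 8 h, DESeq2 430 and 423, no filter 843 and 936, the replicate block 87 and 162, and an FDR of 0.05 723 and 833. The model of all 24 libraries gave 1229 and 582 in CTRL cells at 8 and 24 h, 3127 in inducible cells at 8 h, and 441 and 603 in the interaction at 8 and 24 h. An FDR of 0.05 gave 1766 in CTRL cells and 3694 in inducible cells at 24 h, and 1649 and 1666 in the interaction at 24 and 48 h. The cause of these differences was not tested, apart from the wider threshold. Leaving out 1 library gave 1 to 2 members in CTRL cells at 24 h (1 without replicate 2 at 24 h), 3 to 5 at 48 h (3 without replicate 3 at 48 h), and in the interaction 0 to 2 at 8 h, 2 to 4 at 24 h and 2 to 4 at 48 h (4 without CTRL replicate 2 at 48 h). All genes called then ranged from 92 to 774 in CTRL cells at 8 h, from 505 to 1104 at 24 h, and from 131 to 1196 in the interaction at 8 h. The replicate block ended the calls of KLF10 in CTRL cells at 48 h and KLF2 in the interaction at 8 h, where no same-numbered pair of libraries correlated above 0.1, that of KLF4 in the interaction at 24 h, where 4 of 18 pairs did, and no other member call. Depth limits KLF5, with 27 to 105 counts per library, and KLF7, with at most 7.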
